A study of Mus musculus with 2 samples.

Results

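The genes described here are 10 markers of disease-associated microglia, Trem2, Tyrobp, Clec7a, Itgax, Cd9, Cd63, Cst7, Gpnmb, Lgals3 and Spp1. They were chosen by symbol from the gene list shared by both deposited matrices, each symbol occurred there, and they make up 10 of the 25827 genes listed. Disease-associated microglia are a state that microglia, the resident macrophages of brain tissue, take on around amyloid plaques, dying neurons and demyelinated axons in mice. Cells in this state lower homeostatic genes such as P2ry12 and raise lysosomal, lipid-handling and adhesion genes, and the later step of the change needs TREM2, a lipid-sensing receptor that signals through the adaptor TYROBP (also called DAP12). Several of the 10 genes are not particular to microglia: Itgax encodes CD11c, used to mark dendritic cells, Lgals3 and Clec7a are high in monocytes and neutrophils, and Cd9, Cd63 and Spp1 are widely expressed.

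The study measured UMIs (unique molecular identifiers, 1 for each captured transcript molecule) in single cells sorted from whole brains of adult mice, with a 10x Genomics 3′ kit. One library came from IL34LacZ/LacZ mice, in which both copies of Il34 carry the lacZ allele, and the other from IL34LacZ/+ mice, in which 1 copy does, so both groups carry at least 1 such allele and there is no library without it. IL-34 is, with CSF1, one of the ligands of CSF1R on which brain macrophages depend, and the title of the study names perivascular macrophages that depend on it. Cells had been sorted as mural cells and fibroblasts (CD13+ and/or CD140a+, O4-), endothelial cells (CD31+), astrocytes (ACSA-2+), border-associated macrophages (BAMs, CD11b-high F4/80+) and microglia (CD11b+ F4/80-high). How many mice, of which sex, stand behind a library, and in what proportions the populations were pooled, the sources do not state. With 1 library for each genotype there is no replicate, so no p-value is given: each difference compares 2 libraries, and every interval is a 95% interval that covers counting error only, treating UMIs as independent although those of 1 cell are not. A gene was called higher or lower where it had at least 50 UMIs in all, its levels differed by 1.5-fold or more, and the interval of the ratio did not hold 1.

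Of 18858 and 17168 barcodes in the IL34LacZ/LacZ and IL34LacZ/+ libraries, 9619 and 8208 cells were kept, with median depths of 3684 and 3540.5 UMIs. Clustering, from which the 10 genes and 21 related genes were left out, gave 1032 and 752 microglia-like cells and 1887 and 1919 BAM-like cells. In each library 10 of 10 microglia markers and 11 of 11 BAM markers stood at least 2-fold above the median of the other classes in the class named for them. The clusters were named from these same markers, so this describes the classes and does not check their names. The libraries share 103 barcodes, 26 of them among the kept cells. RNA of 5 choroid plexus genes was lower in IL34LacZ/LacZ cells, at 2647 against 5226 CPM (UMIs scaled to 1e6 UMIs of the class) in microglia-like cells and at 2622 against 5739 CPM in BAM-like cells, and its part in the results below was not tested. Il34 itself did not part the labels, with 386 UMIs (7.26 CPM, 6.55 to 8.02) in all kept IL34LacZ/LacZ cells and 289 UMIs (6.36 CPM, 5.65 to 7.13) in all kept IL34LacZ/+ cells. In mural-like cells, where it was high, Il34 gave 111 and 132 CPM. The kit reads the 3′ end of a transcript and the sources used here do not say which bases the lacZ allele replaces, so these counts check no label, and the genotypes below are as labelled.

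The promoter windows of 5 genes on which the results turn are shown because their levels differed most between the libraries: Clec7a in microglia-like cells, and Itgax, Gpnmb, Cd9 and Lgals3 in BAM-like cells. Each runs from 250 bases before to 50 bases after a RefSeq start in GRCm38.p6, is written 5′ to 3′ on the gene's strand in 300 bases, and has in capitals any match to the motifs named below.
Itgax, chr7:128129300-128129599, plus strand: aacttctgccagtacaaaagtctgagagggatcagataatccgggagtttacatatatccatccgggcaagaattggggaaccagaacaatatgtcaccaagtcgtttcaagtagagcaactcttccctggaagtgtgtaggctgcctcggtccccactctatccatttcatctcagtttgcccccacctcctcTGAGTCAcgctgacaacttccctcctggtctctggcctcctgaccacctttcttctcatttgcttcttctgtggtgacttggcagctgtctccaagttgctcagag
Gpnmb, chr6:49036268-49036567, plus strand: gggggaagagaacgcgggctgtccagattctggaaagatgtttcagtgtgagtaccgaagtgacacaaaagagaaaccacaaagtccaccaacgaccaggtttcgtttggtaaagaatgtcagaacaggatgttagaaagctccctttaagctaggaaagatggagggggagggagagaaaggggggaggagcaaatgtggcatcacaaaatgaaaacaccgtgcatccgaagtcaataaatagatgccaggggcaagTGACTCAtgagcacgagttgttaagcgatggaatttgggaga
Cd9, chr6:125494711-125495010, minus strand: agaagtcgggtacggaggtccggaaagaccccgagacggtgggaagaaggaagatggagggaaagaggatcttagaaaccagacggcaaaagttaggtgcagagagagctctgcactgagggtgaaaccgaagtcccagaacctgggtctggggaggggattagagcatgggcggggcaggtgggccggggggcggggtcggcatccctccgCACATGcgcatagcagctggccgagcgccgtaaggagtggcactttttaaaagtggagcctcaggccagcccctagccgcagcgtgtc
Lgals3, chr14:47373610-47373909, plus strand: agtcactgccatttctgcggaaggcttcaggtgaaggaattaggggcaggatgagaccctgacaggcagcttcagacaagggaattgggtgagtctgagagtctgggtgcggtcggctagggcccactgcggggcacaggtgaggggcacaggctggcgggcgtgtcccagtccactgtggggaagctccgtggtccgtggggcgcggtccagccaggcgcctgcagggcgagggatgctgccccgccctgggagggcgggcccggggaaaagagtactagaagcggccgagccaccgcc
Clec7a, chr6:129472730-129473029, minus strand: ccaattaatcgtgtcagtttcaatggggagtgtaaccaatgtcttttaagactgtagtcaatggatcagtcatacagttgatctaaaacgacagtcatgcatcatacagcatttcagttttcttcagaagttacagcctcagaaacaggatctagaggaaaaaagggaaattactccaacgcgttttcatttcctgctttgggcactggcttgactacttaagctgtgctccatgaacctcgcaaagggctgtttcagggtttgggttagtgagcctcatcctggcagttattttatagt
RefSeq windows were matched for 9 of the 10 genes (11 windows, since Clec7a and Spp1 have 2 each). The AP-1 motif TGANTCA, searched on both strands, occurred in 4 of the 9 genes, as TGAGTCA 56 bases before the start of Itgax, TGATTCA 6 bases before that of Cst7, TGAATCA 9 bases before that of Trem2 and TGACTCA 8 bases after that of Gpnmb. Of 32851 mouse promoter windows of the same length, 7.81% held it. The motif of MITF, CATGTG, stood in the Cd9 window on the other strand, 38 bases before the start, and occurred in 14.2% of all windows. GAGGAAGT, a core bound by PU.1, stood in 1 of the windows of Spp1, 113 bases before the start, against 3.20% of all windows, and CACGTG, bound by TFEB and TFE3, stood in no member's window, against 7.15% of all. No motif overlapped another, and a match is a string of letters and not a measured binding site.

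Across cell classes the 10 genes fell into several patterns, shown in the plot of levels by class. Levels are given per class and library in CPM, and since a 3′ kit counts transcripts and not their fragments, CPM of different genes need no length correction, although capture may still differ between genes. Trem2 and Tyrobp, the receptor and its adaptor, were macrophage genes. Trem2 had 2586 CPM (2534 to 2638) in IL34LacZ/LacZ microglia-like cells and 2697 CPM (2631 to 2764) in IL34LacZ/+ microglia-like cells, the first place among classes in both libraries. BAM-like cells came next at 724 and 719 CPM, and neutrophil-like cells at 710 and 524 CPM. Neutrophil-like cells also held 16144 and 16002 CPM of 8 pan-macrophage genes, 43.3% and 43.1% of the microglial level, and how far macrophage RNA or doublets feed their Trem2 was not tested. Tyrobp was spread over all myeloid classes, with 3633 and 3907 CPM in monocyte-like, 3230 and 3226 CPM in microglia-like, and 2849 and 2945 CPM in BAM-like cells.

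**Figure D1:**
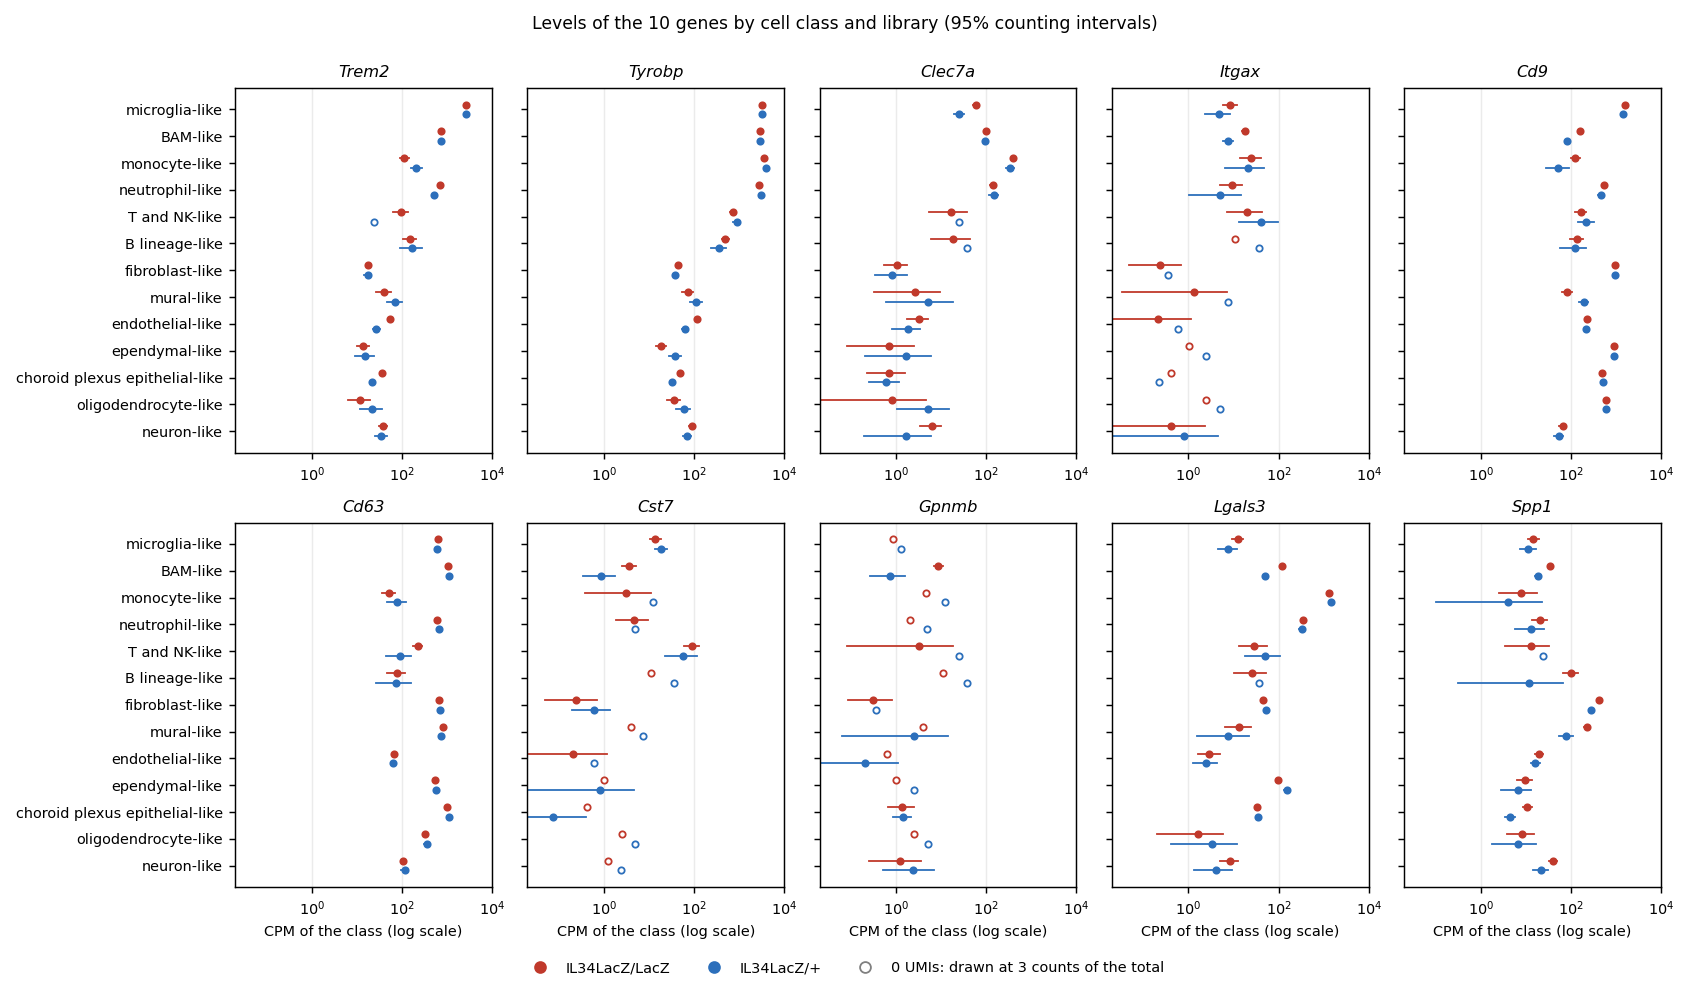
Level of each gene (CPM of the class, log axis) in 13 classes of the IL34LacZ/LacZ library (red, upper point of each pair) and the IL34LacZ/+ library (blue, lower point), with 95% counting intervals. Open points mark 0 UMIs and are drawn at the level of 3 UMIs. Trem2 peaks in microglia-like cells at 2586 and 2697 CPM, Lgals3 in monocyte-like cells at 1344 and 1469 CPM, and Spp1 in fibroblast-like cells at 417 and 276 CPM.

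Clec7a, the beta-glucan receptor dectin-1, was low in microglia and high in blood-derived cells. Its level was 392.2 and 335.5 CPM in monocyte-like cells, 141 and 145 CPM in neutrophil-like cells, and 97.3 and 95.2 CPM in BAM-like cells. Microglia-like cells came next, at 59.5 CPM (51.8 to 68.0) in the IL34LacZ/LacZ library and 25.0 CPM (19.002 to 32.2) in the IL34LacZ/+ library. In each library these 4 classes had intervals that did not overlap their neighbours in the order. The Ensembl annotation used here types Clec7a (chr6:129461591-129472779, minus strand) as a polymorphic pseudogene, a gene that is intact only in some strains. Itgax (CD11c) was low everywhere. Its 3 highest classes were monocyte-like cells (24.8 and 20.5 CPM), T and NK-like cells (19.4 and 41.0 CPM) and BAM-like cells (17.8 and 7.63 CPM), and neighbouring intervals overlapped in both libraries, so they have no firm order.

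The tetraspanins followed neither pattern. Cd9 was highest in microglia-like cells, at 1619 and 1416 CPM, ahead of fibroblast-like cells (975 and 949 CPM) and ependymal-like cells (908 and 889 CPM), while BAM-like cells held only 161 and 84.4 CPM. Cd63, carried by late endosomes and lysosomes, was highest in BAM-like (1030 and 1106 CPM) and choroid plexus epithelial-like cells (1006 and 1113 CPM), whose intervals overlapped, and microglia-like cells had 646 and 589 CPM. Cd9 therefore stood higher in microglia-like than in BAM-like cells, and Cd63 the other way round, in both libraries.

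Cst7, Gpnmb, Lgals3 and Spp1 were barely present in microglia. Cst7, which encodes cystatin F, an inhibitor of lysosomal cysteine proteases made by cytotoxic lymphocytes, was highest in T and NK-like cells at 90.8 and 57.4 CPM and stood at 13.8 CPM (50 UMIs) and 18.6 CPM (44 UMIs) in microglia-like cells. Gpnmb, a membrane glycoprotein of lysosomes, gave 0 UMIs in 1032 IL34LacZ/LacZ and 0 in 752 IL34LacZ/+ microglia-like cells, which allows up to 0.827 and 1.27 CPM at 3 UMIs. Lgals3, which encodes the sugar-binding protein galectin-3, was a monocyte gene here at 1344 and 1469 CPM, with 353 and 335 CPM in neutrophil-like cells and 12.4 and 7.62 CPM in microglia-like cells. Spp1 (osteopontin, a secreted ligand of integrins and CD44) was highest among named classes in fibroblast-like cells at 417 and 276 CPM and in mural-like cells at 235 and 79.9 CPM.

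Between the libraries, 8 of the 10 genes reached 50 UMIs in microglia-like cells, all but Itgax and Gpnmb. One of them, Clec7a, was called higher in the IL34LacZ/LacZ library and 0 were called lower, against 2.36% of 8849 genes called higher and 1.44% called lower. The median ratio of the 8 genes was 1.12, beside 1.001 over all genes tested. Clec7a had 216 UMIs in IL34LacZ/LacZ cells and 59 UMIs in IL34LacZ/+ cells, at the levels given above, a ratio of 2.38 (1.78 to 3.24). After each cell was thinned to 2000 UMIs, 8.42% of IL34LacZ/LacZ and 3.62% of IL34LacZ/+ microglia-like cells had a Clec7a UMI. Without thinning, 106 of 1032 and 36 of 752 cells had one, at median depths of 3080 and 2702.5 UMIs. Endothelial-like cells, which should lack Clec7a, had one in 0.320% and 0.303% of thinned cells. Before thinning their median depths were 2106 and 2113 UMIs, and 811 of 1748 and 850 of 1841 cells were left out as under 2000.

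The receptor and adaptor were level between the libraries, with ratios of 0.959 (0.929 to 0.9898) for Trem2 and 1.001 (0.973 to 1.03) for Tyrobp. The tetraspanins stood slightly above 1, at 1.14 (1.10 to 1.19) for Cd9 and 1.10 (1.02 to 1.17) for Cd63, under the 1.5 that a call needs. Among the low genes the intervals were wide. Itgax had 31 and 11 UMIs (8.54 and 4.65 CPM; ratio 1.84, 0.898 to 4.05), Lgals3 45 and 18 UMIs (ratio 1.63, 0.924 to 2.99) and Cst7 50 and 44 UMIs (ratio 0.740, 0.484 to 1.14). For none of the 3 did the counts separate the libraries. Of the 44 Cst7 UMIs in IL34LacZ/+ cells 13 came from 1 cell. Spp1, at 14.9 and 11.4 CPM, was no higher than in endothelial-like cells (19.7 and 16.4 CPM).

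**Figure D2:**
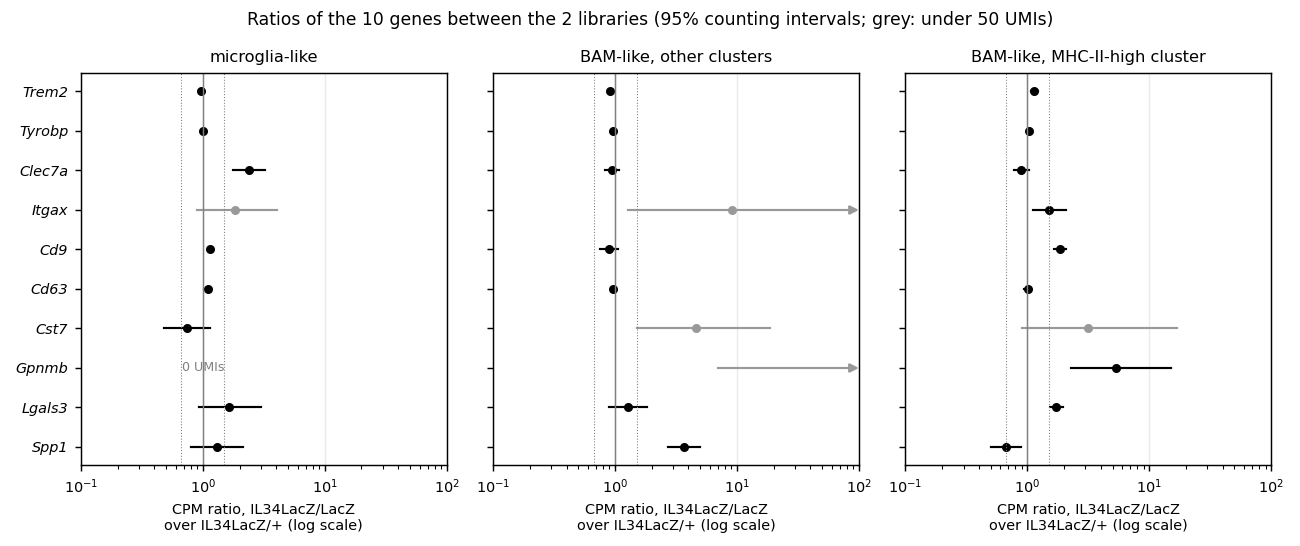
Ratio of each gene between the libraries (IL34LacZ/LacZ over IL34LacZ/+, log axis) in microglia-like cells, in BAM-like cells of the other 3 clusters and in the MHC-II-high BAM-like cluster, with 95% counting intervals. Grey marks genes under 50 UMIs, dotted lines a ratio of 1.5 in either direction and arrowheads intervals that leave the axis. Clec7a stands at 2.38 in microglia-like cells, 0.951 in the other BAM-like clusters and 0.895 in the MHC-II-high cluster.

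The Clec7a difference was not held by 1 group of microglia. In 5 of 6 microglia-like subclusters the IL34LacZ/LacZ level was above the IL34LacZ/+ level, and the sixth, of 18 and 8 cells led by neuronal genes, had 0 UMIs in both. The 3 large subclusters, named 0, 1 and 2, had 30.3 and 6.15 CPM (18 and 3 UMIs), 37.7 and 23.5 CPM, and 41.5 and 20.7 CPM, with the IL34LacZ/LacZ library first in each pair. A small subcluster led by the chemokine genes Ccl4, Ccl3 and Cxcl2, with 68 and 25 cells, held the highest level at 312 and 140 CPM, and a further one of 33 and 24 cells, led by the vascular genes Vtn, Flt1 and Rgs5, had 94.2 and 73.8 CPM. With the chemokine-led subcluster left out, a choice made after seeing the data, Clec7a stood at 39.8 and 20.6 CPM, a ratio of 1.93 (1.37 to 2.75), and was still the 1 member called of 7 tested, against 2.34% of genes called higher and 1.39% lower. Over 16 alternative settings the ratio lay between 1.93 and 2.76 and Clec7a was called higher in 16.

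Microglia-like cells with a Clec7a UMI also carried more of other genes of the set, in both libraries. These cells were deeper, with medians of 4305 against 2973 UMIs in the IL34LacZ/LacZ library and 4262 against 2664 UMIs in the IL34LacZ/+ library, so levels are given in CPM and as a description. Itgax stood at 35.0 CPM in IL34LacZ/LacZ cells with a Clec7a UMI and 3.60 CPM in those without, and at 19.9 and 3.24 CPM in IL34LacZ/+ cells. Lgals3 stood at 59.6 and 3.60 CPM, and at 54.8 and 3.24 CPM, in the same order, and Cst7 at 50.8 and 6.87 CPM, and at 94.6 and 11.6 CPM. Each of these 3 low genes stood several times higher in cells with a Clec7a UMI, in either library, but on few UMIs. In IL34LacZ/+ cells Itgax rested on 4 and 7 UMIs, and its intervals overlapped (5.43 to 51.0 and 1.30 to 6.67 CPM). Lgals3 had 11 UMIs (27.3 to 98.0 CPM) and 7 UMIs (1.30 to 6.67 CPM) there, and Cst7 19 UMIs (56.9 to 148 CPM) and 25 UMIs (7.48 to 17.1 CPM). Cd63 was nearer to level (1020 and 576 CPM, and 1135 and 539 CPM). Trem2 had 2559 and 2591 CPM in IL34LacZ/LacZ cells and 2842 and 2684 CPM in IL34LacZ/+ cells, almost the same with and without a Clec7a UMI. Of the related genes, Apoe, which carries lipids, had 5606 and 1525 CPM in the IL34LacZ/LacZ library and 2713 and 1463 CPM in the IL34LacZ/+ library, and Lpl, a lipase, 203 and 27.1 CPM, and 254 and 21.3 CPM. P2ry12, the homeostatic purinergic receptor, ran the other way, at 1746 and 2553 CPM, and 1981 and 3004 CPM. Ccl4, a chemokine, had 2875 and 511 CPM in IL34LacZ/LacZ cells with and without a Clec7a UMI, and 801 and 410 CPM in IL34LacZ/+ cells. H2-Aa, an MHC class II gene, had 42.0 (26.9 to 62.6) and 23.5 CPM (18.4 to 29.6), and 44.8 (20.5 to 85.0) and 14.3 CPM (9.74 to 20.3), and Spp1 24.5 (13.4 to 41.1) and 13.1 CPM (9.34 to 17.8), and 64.7 (34.5 to 111) and 6.47 CPM (3.54 to 10.9). Mrc1 had 47.3 and 63.8 CPM in IL34LacZ/LacZ cells and 39.8 and 56.0 CPM in IL34LacZ/+ cells, and Pf4 42.0 and 40.9 CPM, and 54.8 and 53.2 CPM, so these BAM genes were not higher in cells with a Clec7a UMI beyond a small margin.

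**Figure D3:**
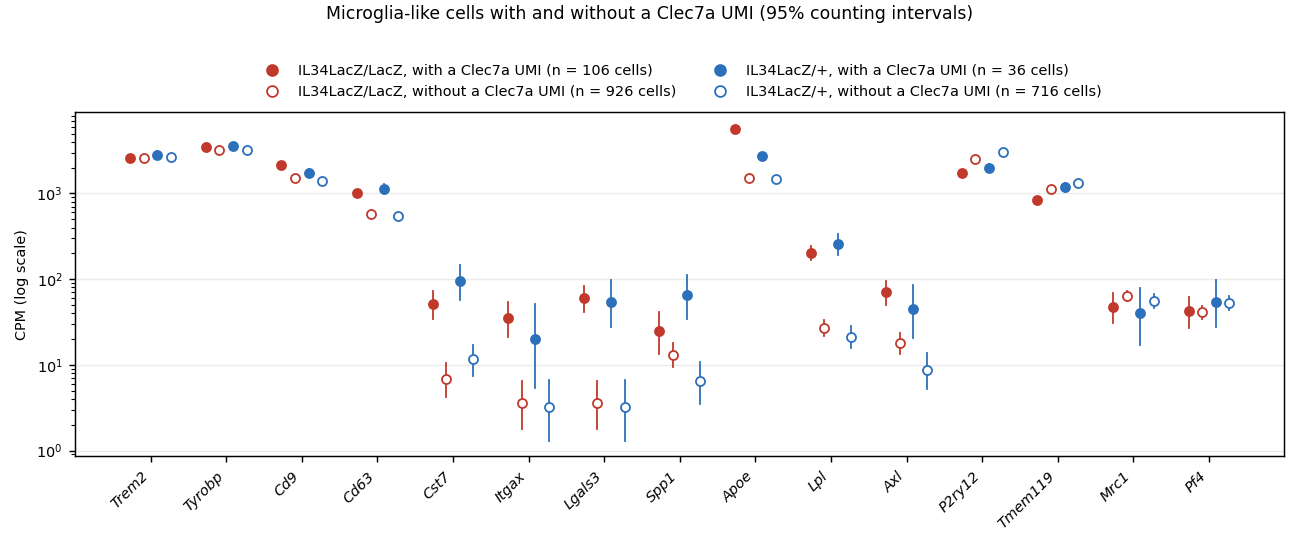
Level (CPM, log axis) of 15 genes in microglia-like cells with (filled) and without (open) a Clec7a UMI, in the IL34LacZ/LacZ library (red) and the IL34LacZ/+ library (blue), with 95% counting intervals. Itgax, Cst7, Lgals3, Lpl and Apoe are higher in the filled points of both libraries, P2ry12 is lower, and Pf4 is close at 42.0 and 40.9 CPM in the IL34LacZ/LacZ library. The Itgax intervals of the IL34LacZ/+ library overlap.

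Few microglia-like cells carried several of the low genes together. Of 6 low genes (Clec7a, Itgax, Cst7, Lgals3, Spp1 and Gpnmb), 85.6% of thinned IL34LacZ/LacZ cells and 92.4% of thinned IL34LacZ/+ cells had a UMI of none. Cells with 3 or more of them numbered 4 of 784 and 1 of 497.

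The other genes of the programme moved unevenly in microglia-like cells. The counts of each list below stand beside 2.36% of all 8849 genes called higher there and 1.44% called lower. Of 21 related disease-associated genes, all tested, 3 were called higher in the IL34LacZ/LacZ library and 0 lower, with 16 above 1 and a median ratio of 1.17. The 3 were Igf1, a growth factor (15.7 and 5.50 CPM; ratio 2.86, 1.54 to 5.69), Axl, a receptor tyrosine kinase for phosphatidylserine-bound ligands (26.2 and 11.8 CPM; ratio 2.21, 1.44 to 3.499), and Csf1, the other ligand of CSF1R (39.7 and 21.6 CPM; ratio 1.84, 1.33 to 2.58). Apoe had 2167 and 1569 CPM, a ratio of 1.38 (1.33 to 1.44), below the size that a call needs. Of 17 genes listed with TREM2-TYROBP and dectin-1 signalling, 9 were above 1 and 0 were called in either direction, with a median ratio of 1.004. Not all of them act downstream of the receptors, since the list also holds Adam10, Adam17, Spi1 and Hcst. Of 15 homeostatic genes, 3 were above 1, 0 were called higher and 1 was called lower, and their median ratio was 0.860. The 1 was Crybb1, with 203 and 308 CPM (ratio 0.659, 0.594 to 0.731), and P2ry12 stood at 2426 and 2917 CPM (ratio 0.832, 0.806 to 0.859). Genes outside the programme moved beside Clec7a. Of 12 dissociation and immediate-early genes, 7 were above 1, 2 were called higher and 0 lower, with a median ratio of 1.04, and the 2 were the chemokine genes Ccl4 (883 and 443 CPM; ratio 1.99, 1.86 to 2.14) and Ccl3 (397 and 222 CPM; ratio 1.79, 1.62 to 1.98). Of 7 MHC class II genes, 6 were tested, and H2-Aa (26.4 and 16.9 CPM; ratio 1.56, 1.07 to 2.32) and H2-Eb1 (17.4 and 10.6 CPM; ratio 1.64, 1.02 to 2.72) were called higher and 0 lower, with a median of 1.30. Without the chemokine-led subcluster, where Clec7a was still called, 0 genes of either list were called in either direction, with Ccl4 at a ratio of 1.07, Ccl3 at 1.19, H2-Aa at 1.44 and H2-Eb1 at 1.60 (0.984 to 2.66).

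In BAM-like cells more of the genes differed, and 1 cluster carried most of the difference. There 9 of the 10 genes reached 50 UMIs, and 5 were called higher in the IL34LacZ/LacZ library and 0 lower, against 3.13% of 10977 genes called higher and 1.43% called lower. The median ratio of the 9 was 1.81, beside 1.02 over all genes tested. The 5 were Gpnmb (81 and 6 UMIs; ratio 11.9, 5.22 to 33.2), Lgals3 (118 and 50.4 CPM; ratio 2.35, 2.10 to 2.64), Itgax (17.8 and 7.63 CPM; ratio 2.33, 1.73 to 3.16), Cd9 (161 and 84.4 CPM; ratio 1.91, 1.74 to 2.09) and Spp1 (34.3 and 19.01 CPM; ratio 1.81, 1.49 to 2.20). Clec7a, the 1 gene called in microglia-like cells, was level here at 97.3 and 95.2 CPM (ratio 1.02, 0.928 to 1.13), and so were Trem2 (724 and 719 CPM; ratio 1.01) and Tyrobp (2849 and 2945 CPM; ratio 0.968). Whether any gene's ratio differs between microglia-like and BAM-like cells was not tested, since each rests on 1 library for each genotype. Cst7 had 34 and 7 UMIs, too few for the rule. The count of 5 became 1 with doublets kept or with coarser clusters, settings under which the cluster described next was not named BAM-like. With at least 500 UMIs per cell that cluster was not named BAM-like either, and 4 genes were called higher.

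A BAM-like cluster led by the MHC class II genes H2-Eb1, H2-Aa, H2-Ab1 and Cd74 held 490 of the 1887 IL34LacZ/LacZ cells and 344 of the 1919 IL34LacZ/+ cells, or 26.0% and 17.9%. It carried 94.6% and 98.4% of the Itgax UMIs of BAM-like cells and 93.4% and 86.1% of the Lgals3 UMIs. When it was left out, a choice made after seeing the data, 7 of the genes were tested and 1 was called higher, Spp1, against 1.79% of 10196 genes, with 0 lower against 1.29%. Their median ratio was 0.961, beside 1.03 over all genes. Cd9 stood at 40.7 and 45.4 CPM (ratio 0.897, 0.756 to 1.06) and Lgals3 at 11.5 and 9.01 CPM (ratio 1.28, 0.893 to 1.84), and Itgax was down to 9 and 1 UMIs. Trem2 had 639 and 700 CPM and Clec7a 69.7 and 73.3 CPM in these 3 clusters. The Spp1 ratio of 3.65 (2.72 to 4.95) rested in part on 1 IL34LacZ/LacZ cell with 86 of the 212 UMIs. MHC class II genes as a list had 11800 and 8142 CPM over all BAM-like cells.

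Inside the MHC-II-high cluster, 9 genes were tested, and 4 were called higher in the IL34LacZ/LacZ library and 0 lower, against 3.7% and 1.67% of 7950 genes. The median ratio was 1.14, beside 1.03 over all genes. Cd9 had 410 and 223 CPM (ratio 1.84, 1.65 to 2.07), Lgals3 340 and 197 CPM (ratio 1.73, 1.53 to 1.95), Itgax 51.6 and 34.1 CPM (ratio 1.51, 1.12 to 2.06) and Gpnmb 54 and 6 UMIs (ratio 5.34, 2.30 to 15.2). Clec7a was higher in this cluster than in the other BAM-like clusters of both libraries, at 154 and 173 CPM, and did not separate the libraries (ratio 0.895, 0.774 to 1.04). Spp1 lay below 1 here, at 36.2 and 53.8 CPM (ratio 0.673, 0.508 to 0.892), just short of a lower call. That ratio leans on few cells. The Spp1 UMIs were 111 from 36 IL34LacZ/LacZ cells (22 in 1 cell) and 98 from 26 IL34LacZ/+ cells (31 in 1 cell). A further IL34LacZ/+ cell with many of them lay in the subcluster led by Chil3, described below. Cells with 3 or more of the 6 low genes were found in this cluster, 22 of 428 thinned IL34LacZ/LacZ cells and 4 of 285 thinned IL34LacZ/+ cells, and in no thinned cell of the other 3 clusters.

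The cluster is mixed, and markers of other cells move with it. Its cells held 5715 and 7380 CPM of 11 BAM markers, against 19689 and 18713 CPM in the other BAM-like clusters, with 0 of the markers at 0 in either library. They held 6252 and 5058 CPM of 10 microglia markers, 637 and 472 CPM of 10 monocyte markers (0 and 1 at 0 UMIs) and 639 and 543 CPM of 9 dendritic cell markers (0 and 0 at 0 UMIs). The other BAM-like clusters held 3342 and 3420, 96.4 and 109, and 421 and 341 CPM of these lists, in the same order. Microglia-like cells held 1827 and 2134 CPM of the dendritic cell list, which shares Siglech with the microglia list. The sort used CD11b and F4/80, which dendritic cells and monocytes can also carry. The part of these cells in the ratios above was not tested beyond the split that follows.

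The MHC-II-high cluster was split into subclusters, of which 5 are described and a sixth, of 4 and 6 cells, was led by choroid plexus genes. The subcluster led by Cxcl9 and Ccl24 (151 and 139 cells) kept the most BAM markers, at 10414 and 12246 CPM, and had Lgals3 at 152 and 42.5 CPM, Itgax at 25.9 and 2.74 CPM (23 and 2 UMIs) and Clec7a at 118 and 159 CPM. The one led by Ccl4 and Cd72 (149 and 97 cells) had Lgals3 at 397 and 125 CPM and Itgax at 83.7 and 44.7 CPM. The one led by Ccl5, Cd209a, Napsa and Klrd1 (83 and 51 cells) held 1535 and 1450 CPM of dendritic cell markers and 1469 and 1248 CPM of monocyte markers, and had Itgax at 89.5 and 113 CPM and Lgals3 at 585 and 490 CPM. In it BAM markers were down to 1058 and 1440 CPM. In the first 2 of these, Lgals3 was called higher in IL34LacZ/LacZ cells (ratios 3.57, 2.40 to 5.47, and 3.17, 2.27 to 4.52), against 2.92% and 7.04% of all genes called higher (2.23% and 4.57% lower), and in the third it was not (1.19, 0.981 to 1.46). Cd63 went both ways, called higher in the one led by Ccl4 and Cd72 (1097 and 623 CPM; ratio 1.76, 1.503 to 2.07) and lower in the one led by Ccl5 (86.0 and 169 CPM; ratio 0.509, 0.338 to 0.768), against 2.92% of genes called lower and 4.69% called higher there. Clec7a was called lower in the one led by Ccl4 and Cd72, at 162 and 244 CPM (ratio 0.663, 0.486 to 0.906).

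A subcluster of microglial character (75 and 37 cells) was led by Sparc, Tmem119 and P2ry12 and held 14154 and 13096 CPM of microglia markers beside 5172 and 6311 CPM of BAM markers. It had the highest Trem2 of the cluster, at 1650 and 1570 CPM, Cd9 at 731 and 576 CPM, and 0 Gpnmb UMIs. The one led by Chil3, Fabp5 and Hmox1, had only 28 and 14 cells and in the IL34LacZ/LacZ library stood highest for Clec7a, Itgax, Cd9, Lgals3, Gpnmb and Spp1. Its Lgals3 was at 1117 and 822 CPM, its Cd9 at 978 and 91.3 CPM and its Clec7a at 345 and 137 CPM. Gpnmb gave 48 UMIs (223 CPM) in 5 IL34LacZ/LacZ cells, 25 of them in 1 cell, and 0 UMIs in the 14 IL34LacZ/+ cells. Spp1 ran the other way at 121 and 426 CPM, with 22 of 26 and 27 of 28 UMIs in 1 cell each. Monocyte markers in this subcluster were at 1239 and 60.9 CPM, with 5 and 8 of the 10 at 0 UMIs, and their part in these values was not tested.

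**Figure D4:**
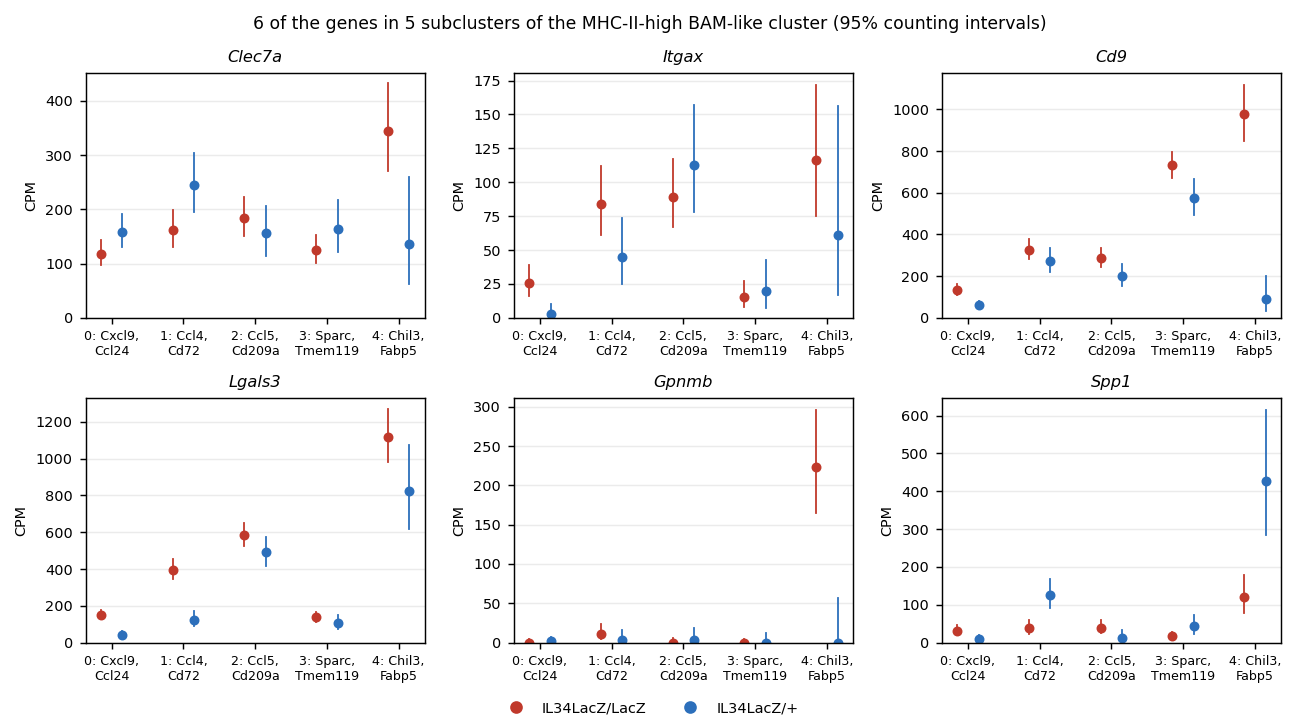
Level (CPM) of 6 genes in 5 subclusters of BAM-like cells high in MHC class II, in the IL34LacZ/LacZ library (red, left of each pair) and the IL34LacZ/+ library (blue, right), with 95% counting intervals. Subclusters are named by leading genes. In the IL34LacZ/LacZ library all 6 genes are highest in the subcluster led by Chil3 and Fabp5, which has 28 and 14 cells, and there Spp1 is lower than in the IL34LacZ/+ library.

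Cells with Gpnmb were few. Of the 81 UMIs in IL34LacZ/LacZ BAM-like cells, 54 lay in 6 cells of the MHC-II-high cluster and 24 in 1 cell of a cluster led by Wfdc17 and Ccl8, so 10 cells made up the whole level. In IL34LacZ/+ cells 6 UMIs came from 4 cells. The 10 IL34LacZ/LacZ cells had Cd9 at 1572 CPM and Lgals3 at 845 CPM, against 145 and 110 CPM in the other 1877, and Lpl at 1176 against 53.0 CPM. In the 4 IL34LacZ/+ cells Lgals3 stood at 773 CPM and Cd9 at 206 CPM, against 45.2 and 83.5 CPM in the other 1915. Trem2 stood at 276 CPM (186 to 394) in the 10 IL34LacZ/LacZ cells, against 729 CPM in the other 1877, and at 635 CPM (447 to 876) in the 4 IL34LacZ/+ cells, against 720 CPM in the other 1915, so it was lower in cells with Gpnmb in the IL34LacZ/LacZ library and not separated by the counts in the IL34LacZ/+ library.

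Clec7a in the 3 other BAM-like clusters was 67.1 and 75.5 CPM in the one led by Ccl7, Pf4 and Mrc1 (which also led the others in the stress and immediate-early genes Dnajb1, Atf3 and Ier2), 72.9 and 77.5 CPM in the one led by Wfdc17 and Ccl8, and 80.7 and 43.2 CPM in a small one with interferon-induced genes (69 and 141 cells). The counts of the other lists in BAM-like cells stand beside 3.13% of all genes called higher and 1.43% called lower. Among them, 1 of 21 related genes was called higher, Cadm1 (41.2 and 25.9 CPM; ratio 1.59, 1.34 to 1.89), and 0 lower, with 16 above 1 and a median of 1.13. Apoe was at 35425 and 40205 CPM, a ratio of 0.881. Of the 17 genes of the signalling list 15 were above 1, 0 were called and the median was 1.10. Of 15 microglia homeostatic genes 13 were above 1 and 3 were called higher, Sall1 (17.0 and 9.20 CPM; ratio 1.85), Tmem119 (85.9 and 51.2 CPM; ratio 1.68) and Selplg (220 and 132 CPM; ratio 1.66), with 0 lower and a median of 1.25. P2ry12 had 254 and 225 CPM there. The 10 microglia markers, a list that overlaps these, summed to 4290 and 3781 CPM over all BAM-like cells. Without the MHC-II-high cluster, which has a subcluster of microglial character, they were not higher, at 3342 and 3420 CPM. In that cluster they were at 6252 and 5058 CPM.

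Calls in the other classes went both ways. Spp1 was called higher in the IL34LacZ/LacZ library in 4 of them: mural-like cells (235 and 79.9 CPM, against 4.9% of genes called higher and 4.14% lower), choroid plexus epithelial-like cells (10.8 and 4.47 CPM, against 5.01% and 0.349%), neuron-like cells (40.0 and 21.7 CPM, against 3.4% both ways) and fibroblast-like cells (417 and 276 CPM, against 2.48% and 1.22%). Cd9 was higher in monocyte-like cells (127 and 53.2 CPM, against 4.07% and 2.7%) and lower in mural-like cells (81.8 and 192 CPM) and in the BAM-like cluster with interferon-induced genes (29.0 and 106 CPM, against 4.33% and 2.85%). Lgals3 was lower in ependymal-like cells (99.1 and 154 CPM, against 1.83% and 1.54%), and Cd63 higher in T and NK-like cells (224 and 90.3 CPM, against 7.83% and 6.87%). Trem2 was lower in monocyte-like cells (113 and 209 CPM; ratio 0.542). Several of these calls did not hold their direction when cells were limited to at most 5% mitochondrial UMIs. Under that limit the log2 ratio turned to 0.50 for Trem2 in monocyte-like cells (377 and 266 CPM), to 0.57 for Cd9 in mural-like cells (238 and 161 CPM) and to -0.53 for Spp1 in choroid plexus epithelial-like cells (1445 and 2089 CPM, far above the level given above). Thinned, the last was -0.061, and that of Cd63 in T and NK-like cells fell to 0.089, against 1.31 without thinning. The remaining calls were of Trem2 or Tyrobp in non-myeloid classes, and those in choroid plexus epithelial-like and mural-like cells turned under the same limit. Among the others were erythroid-like cells (background 16.3% and 11.7%) and oligodendrocyte-like cells (1.85% and 2.06%). Of the genes tested in B lineage-like cells (2; background 5.07% and 4.97%) and neutrophil-like cells (6; 3.23% and 3.45%), 0 were called.

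Free RNA was checked with classes that should lack macrophage genes. Endothelial-like cells held 8 pan-macrophage genes (C1qa, C1qb, C1qc, Ctss, Csf1r, Fcer1g, Aif1 and Laptm5) at 1072 CPM in the IL34LacZ/LacZ library and 524 CPM in the IL34LacZ/+ library, or 2.88% and 1.41% of the microglial level. Trem2 and Tyrobp followed: Trem2 stood at 55.3 and 27.3 CPM and Tyrobp at 115 and 61.5 CPM, which the rule calls higher in the IL34LacZ/LacZ library, against 3.17% of 10593 genes called higher and 1.21% called lower. For each 1000 UMIs of the pan-macrophage genes, endothelial-like cells had 51.6 (45.4 to 58.4) and 52.0 (43.5 to 61.8) UMIs of Trem2, between the 69.4 and 72.6 of microglia-like cells and the 26.7 and 26.1 of BAM-like cells. Neuron-like cells, at 48.3 and 52.8, and fibroblast-like cells, at 45.4 and 49.2, were alike, and choroid plexus epithelial-like cells stood at 70.2 and 65.6. The part of free RNA in the differences of Trem2 and Tyrobp between libraries in these classes was not tested.

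The same measure sets the low genes apart. Clec7a was at 3.14 and 1.80 CPM in endothelial-like cells (15 and 9 UMIs), 5.28% and 7.23% of the microglial level. For each 1000 pan-macrophage UMIs that was 2.93 and 3.44 UMIs, near the 3.59 and 3.45 of BAM-like cells, while microglia-like cells had 1.60 (1.39 to 1.83) and 0.672 (0.511 to 0.867). BAM RNA in microglia-like cells was small and, as a sum, level: 8 BAM-defining genes stood at 393 and 398 CPM there. That was 3.23% and 3.00% of the BAM-like level, while Clec7a stood at 61.2% and 26.2% of the BAM-like level. Most of the sum was Stab1, at 232 and 242 CPM. Single genes were not all level. F13a1 was called higher (53 and 19 UMIs, ratio 1.82, 1.06 to 3.25), against 2.36% of all genes, and Pf4 lay below 1 (ratio 0.770, 0.603 to 0.984). With the 320 and 211 microglia-like cells that held 2 or more UMIs of the 8 genes left out, Clec7a was at a ratio of 2.76 (1.88 to 4.17). Itgax and Cst7 gave 1 and 0 UMIs each in endothelial-like cells, and Gpnmb 0 and 1. Lgals3 was at 2.93 and 2.41 CPM there, 23.6% and 31.6% of the low microglial level.

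Cd9 and Cd63 did not follow macrophage RNA in other classes. Endothelial-like cells had Cd9 at 228 and 218 CPM and Cd63 at 66.0 and 63.9 CPM, level between libraries while the pan-macrophage RNA was not. Spp1 in endothelial-like cells, at 19.7 and 16.4 CPM, was 18.4 and 31.4 UMIs for each 1000 pan-macrophage UMIs, against 1.27 and 0.690 in BAM-like cells. Its highest level of all was 3596 and 5656 CPM in an unnamed cluster of 144 and 101 cells led by Prl, Pomc and Dcn.

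**Figure D5:**
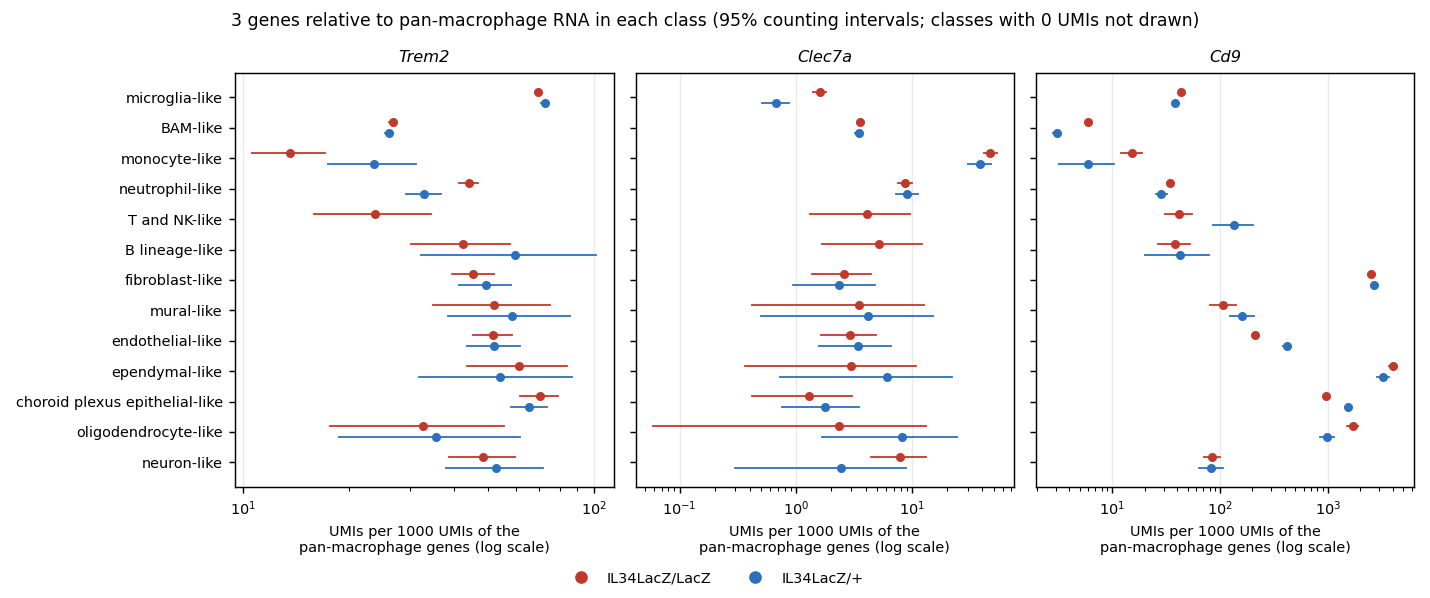
UMIs of Trem2, Clec7a and Cd9 for each 1000 UMIs of 8 pan-macrophage genes (log axis) in 13 classes of the IL34LacZ/LacZ library (red, upper) and the IL34LacZ/+ library (blue, lower), with 95% counting intervals; classes with 0 UMIs are not drawn. Trem2 lies at 45.4 to 70.2 in endothelial-like, neuron-like, fibroblast-like and choroid plexus epithelial-like cells, and lower in oligodendrocyte-like cells, while Cd9 ranges widely.

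Over 52 points (26 clusters with at least 30 cells, in each library), the genes whose log2(CPM + 10) was most like that of each member were listed from 14245 genes, as a description with points that share libraries and free RNA. Trem2 was most like C1qb (r = 0.979), C1qa and Csf1r, and Tyrobp most like Fcer1g (r = 0.994), which encodes another signalling adaptor, Plek and Laptm5. Clec7a was most like Ccl6 (r = 0.962), Alox5ap and Igsf6. Itgax was nearest to Bcl2a1d (r = 0.926), Ccr2 and Klrd1, Cst7 to Nkg7 (r = 0.899), Ptpn7 and Haspin, and Lgals3 to Cd44 (r = 0.839), C3 and Gpr141. The likeness of Cd63 was to Timp2 (r = 0.808), Smim1 and Lamp2, that of Spp1 to Aox3 (r = 0.923), Lum and Dcn, that of Cd9 to Atxn10 (r = 0.677), St3gal5 and Pde6d, and that of Gpnmb to Retnla (r = 0.626), Lyz1 and Zmynd15. Among the members, Trem2 and Tyrobp (r = 0.893) and Clec7a and Tyrobp (r = 0.889) ran together, and Cd9 and Tyrobp did not (r = -0.334). In both libraries 8 of the 10 genes, all but Trem2 and Cd9, were highest in a class other than microglia-like cells.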

How the data were processed

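UMI counts came as 2 deposited gene-by-barcode matrices, 1 for each genotype, which per the file headers the authors made in Cell Ranger 5.0.0, with builds GRCm38.p6 and mm10 named in the submitters' processing notes. The matrices hold 95505407 and 87394167 UMIs (IL34LacZ/LacZ and IL34LacZ/+). Barcodes needed 1000 UMIs and 500 genes or more, and no more than 10% of UMIs from mitochondrial genes, to be kept, and 1218 and 1106 Scrublet doublets (6.46% and 6.44% of barcodes; expected rate 10%) were removed. Cells were clustered jointly with scanpy 1.11.5 and leidenalg 0.10.2 (2000 variable genes, 30 components, 20 neighbours, resolution 1, seed 1) into 28 clusters, named from marker lists, and 505 and 343 cells stayed unnamed. Names were rebuilt here and may differ from the study's. UMIs were summed by library and class. Levels have exact Poisson intervals, ratios exact conditional binomial intervals (scipy 1.17.1) and shares Clopper-Pearson intervals, at 95%, and a count of 0 is given the level of 3 counts. The scripts were tested on simulated data.

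The 10 genes and the other lists were chosen with earlier results of these data known. Named are all 10 genes in the classes, listed genes that pass the call rule (at most 5 for each list, class and direction), P2ry12 and Apoe always, and the 3 genes most like each member (prior of 10 CPM, at least 200 UMIs, clusters of at least 30 cells). Genes set beside Clec7a or Gpnmb in single cells, and leading genes of clusters, were chosen after their values were seen. Alternatives changed the cell filters, doublet removal, resolution, variable genes, scaling, weighting, thinning to 2000 UMIs and gene minimum, and left out clusters or cells. Those that changed filters, doublet removal, resolution or variable genes clustered and named the cells again. Thinning left out cells under 2000 UMIs. Sequences are from RefSeq. Gene types are from the annotation, where 25651 of 25827 gene IDs matched.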

Additional observations from a re-analysis of the deposited data

Results flagged for a closer look

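In 19 cases the ratio between the libraries (IL34LacZ/LacZ over IL34LacZ/+) of a gene in a class was called in the direction opposite to a call of the same gene in another class or cluster. The differences between classes were not tested, since each genotype has 1 library.

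For Cd9 the ratio was above 1 in BAM-like cells (1.91), their MHC-II-high cluster (1.84) and monocyte-like cells (2.39), and below 1 in mural-like cells (0.425) and the BAM-like cluster with interferon-induced genes (0.274). For Lgals3 it was 2.35 in BAM-like cells and 1.73 in the MHC-II-high cluster, against 0.645 in ependymal-like cells. The log2 ratio of Cd9 turned to 0.57 in mural-like cells with at most 5% mitochondrial UMIs, and to -0.48 in BAM-like cells with doublets kept.

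The Trem2 ratio was 1.69 in choroid plexus epithelial-like, 2.03 in endothelial-like and 3.40 in erythroid-like cells, against 0.542 in monocyte-like and 0.566 in mural-like cells. Tyrobp had 1.503 in choroid plexus epithelial-like, 1.87 in endothelial-like and 1.58 in erythroid-like cells, against 0.496 in ependymal-like, 0.634 in mural-like and 0.605 in oligodendrocyte-like cells. Several of these directions turned with the processing. Cells were clustered and named again under each cell filter, so a class of the same name can hold other cells there. With at most 5% mitochondrial UMIs the log2 ratio of Trem2 became -0.51 in choroid plexus epithelial-like, 0.50 in monocyte-like and 1.64 (0.54 to 2.94) in mural-like cells, where it also turned under 4 other settings. Under that limit Tyrobp became -0.44 in choroid plexus epithelial-like and 1.63 in mural-like cells, and it turned to 0.19 in ependymal-like cells with doublets kept. Beside these, the level of the 8 pan-macrophage genes was 1072 and 524 CPM in endothelial-like cells and 761 and 1198 CPM in mural-like cells of the IL34LacZ/LacZ and IL34LacZ/+ libraries.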

How the results depend on the processing

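No paired analysis was possible because each genotype has 1 library. In microglia-like cells Clec7a was called higher under 16 of 16 alternatives (ratios 1.93 to 2.76). The count of 1 gene called higher there became 2 with at most 20% mitochondrial UMIs, with at least 500 UMIs per cell, with equal weight per cell and without the cell holding most UMIs of the gene in each library, the second gene being Lgals3 or Spp1.

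The BAM-like results depended most on the settings. The median log2 ratio of the genes, 0.85, turned to -0.083 with doublets kept, -0.051 at resolution 0.5 and -0.058 without the MHC-II-high cluster (an alternative added after seeing the data). It was 0.45 with at most 5% and 0.23 with at most 20% mitochondrial UMIs, 0.016 with at least 500 and 0.44 with at least 2000 UMIs per cell, 0.55 with equal weight per cell, 0.31 thinned, 0.44 with equal weight per subcluster and 0.44 for genes of at least 100 UMIs. The count of 5 genes called higher became 1 with doublets kept, at resolution 0.5 and without the MHC-II-high cluster, and 3 with at least 2000 UMIs per cell, thinned, with equal weight per subcluster and at a ratio of at least 2. With at least 500 UMIs, doublets kept or resolution 0.5, the MHC-II-high cluster was not named BAM-like. In the first of these 4 genes were still called higher. The cause of these changes was not tested.

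For single genes, the log2 ratio of Cd9 in BAM-like cells turned to -0.48 with doublets kept and -0.16 without the MHC-II-high cluster. Where cell filters or doublet removal changed, classes were named again and can hold other cells, so a turn can reflect a changed class. With at most 5% mitochondrial UMIs it turned to -0.51 (Trem2), -0.44 (Tyrobp) and -0.53 (Spp1) in choroid plexus epithelial-like cells, 0.50 (Trem2) in monocyte-like cells, and 0.57 (Cd9), 1.64 (Trem2) and 1.63 (Tyrobp) in mural-like cells. Thinned, it turned to -0.035 (Tyrobp) and -0.061 (Spp1) in choroid plexus epithelial-like cells and 1.19 (Trem2) in mural-like cells. Mural-like Trem2 also turned to 0.34 with at least 500 UMIs per cell, 0.25 with doublets kept and 0.16 with equal weight per cell, mural-like Tyrobp to 0.29 and ependymal-like Tyrobp to 0.19 with doublets kept. Depth limits Gpnmb, Itgax and Cst7, whose counts in microglia-like cells stayed at 0 to 50 UMIs in a library.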

Other observations

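Clusters that the marker lists could not name held some of the highest levels. An unnamed cluster of 230 and 175 cells with both BAM and microglia markers had Trem2 at 1514 and 1629 CPM in the IL34LacZ/LacZ and IL34LacZ/+ libraries. Another, of 131 and 67 cells led by the granule genes Camp, Ngp and Elane, had Cst7 at 75.7 and 84.6 CPM, next to the 90.8 and 57.4 CPM of T and NK-like cells.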
